A study of Mus musculus with 9 samples.

Results

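The genes described here encode the digestive enzymes, membrane proteins and proton pump of the lysosome, and their RNA was counted in B16F10 cells, a mouse melanoma line. They are 30 named lysosomal genes and every protein-coding gene whose symbol starts with Atp6v, which added 23 genes, nearly all for subunits of the vacuolar ATPase (V-ATPase). Together they made up 53 of the 54752 genes in the deposited count table. The rule names genes and a symbol and uses no measured value, but the members were chosen with earlier results of these data known. By role they were 6 proteases, 13 glycosidases and sulfatases, 5 lipid hydrolases or activator proteins, 6 genes for membrane proteins or progranulin, 14 genes of the V1 part of the pump and 9 of its V0 part. The V1 genes include Atp6v1fnb by its symbol, although it is named as a neighbour of Atp6v1f and is not known as a subunit. A further 2 Atp6v rows were not protein coding and were left out.

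The study compared cells labelled Tada2b knockout with control cells. The knockout genotype was given to 3 libraries titled Tada2bsg1 (guide 1) and 3 titled Tada2bsg2 (guide 2), and the genotype WT to 3 libraries titled GFPsg. All were B16F10 cells grown in serum-supplemented DMEM, with no other allele or agent named. Whether a guide's cells were 1 clone or a mixed pool, and whether replicates were separate cultures, is not given in the sources used here. The p-values therefore measure the spread among these libraries alone, and that spread may be technical. Both guides were set against the same 3 GFPsg libraries.

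Lysosomes break down proteins, glycans and lipids delivered by endocytosis and autophagy. Their hydrolases work at acid pH, which the V-ATPase maintains by using ATP in its cytosolic V1 part to drive protons through its membrane-bound V0 part. In melanocytes, pigment granules are related organelles that share part of this machinery, and the factors Mitf, Tfeb and Tfe3 are known to bind E-box letters in the promoters of many lysosomal genes.

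Library totals lay between 70.6 and 76.9 M counts, and 17931 genes were tested. Tada2b, which encodes an adaptor of the SAGA histone acetyltransferase, had 32.3, 33.3 and 32.7 CPM (counts scaled to a common library size) in Tada2bsg1, 29.0, 26.0 and 25.9 CPM in Tada2bsg2, and 28.0, 25.2 and 26.6 CPM in GFPsg. Its RNA was thus not lower in the libraries labelled knockout. Against GFPsg it was higher with guide 1 (log2 change 0.30, edgeR adjusted p = 2.13e-04) and not called with guide 2 (0.02, edgeR adjusted p = 0.806). It was lower in Tada2bsg2 than in Tada2bsg1 (log2 difference −0.28, edgeR adjusted p = 0.00671). A count over the whole transcript does not show whether protein was made. The melanocytic identity was present in every library, and all 7 melanocytic markers (Pmel, Tyr, Tyrp1, Dct, Mlana, Sox10 and Mitf) fell with both guides, with a summed level of 5084 ± 119 CPM in Tada2bsg1, 7165 ± 123 CPM in Tada2bsg2 and 20636 ± 424 CPM in GFPsg (SD, n = 3 each). Of 10 macrophage markers, Ptprc, Itgam, Tyrobp, C1qa and C1qb were at 0 in all libraries, while Cd68 and Lyz2 rose, and the 10 summed to 6.50 ± 0.139, 5.71 ± 0.185 and 2.91 ± 0.267 CPM in Tada2bsg1, Tada2bsg2 and GFPsg. Fibroblast markers summed to 12.7 ± 0.107, 11.1 ± 0.300 and 4.96 ± 0.731 CPM in the same groups, mostly from Col1a2, and markers of other leukocytes, endothelium and epithelium each summed to no more than 0.308 CPM in any library. The part of these marker levels in the results below was not tested.

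The promoter windows of the members are shown first because several of them hold the E-box letters. RefSeq windows of 300 bases (GRCm38.p6, from 250 bases before to 50 after an annotated start) were matched by symbol for 45 of the 53 members, which had 50 windows. No window was matched for Asah1, Atp6v0a2, Atp6v0d2, Atp6v1b2, Atp6v1c1, Atp6v1g1, Atp6v1h or Ctsb. The core letters CACGTG read the same on both strands and stood in a window of 14 of the 45 genes (31.1%), against 2187 of 27025 genes with any window (8.09%). The longer TCACGTGA, also the same on both strands and containing the core, stood in 7 of the 45 genes (15.6%), against 304 of the 27025 (1.12%). The 27025 genes were not limited to genes with enough counts to be tested here, as most members were, so these shares compare unlike sets. Those 7 were Ctsa, Ctsd, Gla, Mcoln1, Atp6v0d1, Atp6v0e and Atp6v1a. Their windows that show the match at different distances from the start are printed with TCACGTGA in capitals, and Atp6v1a is included as the gene of the 7 that was not called changed.

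Ctsd (chr7:142387778-142388077, strand -): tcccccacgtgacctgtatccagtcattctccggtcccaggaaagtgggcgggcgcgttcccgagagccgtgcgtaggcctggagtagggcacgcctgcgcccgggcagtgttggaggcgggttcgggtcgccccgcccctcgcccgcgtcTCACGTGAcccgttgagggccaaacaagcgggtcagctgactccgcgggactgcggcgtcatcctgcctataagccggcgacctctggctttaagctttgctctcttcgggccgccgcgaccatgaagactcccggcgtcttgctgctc
Mcoln1 (chr8:3500269-3500568, strand +): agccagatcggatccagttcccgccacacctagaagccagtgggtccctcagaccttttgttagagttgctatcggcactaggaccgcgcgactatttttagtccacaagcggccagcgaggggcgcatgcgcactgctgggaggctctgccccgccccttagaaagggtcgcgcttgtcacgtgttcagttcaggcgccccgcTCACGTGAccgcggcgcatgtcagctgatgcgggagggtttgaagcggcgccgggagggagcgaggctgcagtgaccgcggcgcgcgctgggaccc
Gla (chrX:134600956-134601255, strand -): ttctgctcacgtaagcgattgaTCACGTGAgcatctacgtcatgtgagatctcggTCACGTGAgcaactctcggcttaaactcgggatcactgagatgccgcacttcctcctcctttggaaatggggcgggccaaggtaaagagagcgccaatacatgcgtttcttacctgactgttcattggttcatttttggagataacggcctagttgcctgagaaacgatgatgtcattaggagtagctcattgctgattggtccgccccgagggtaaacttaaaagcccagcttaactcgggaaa
Atp6v0d1 (chr8:105566015-105566314, strand -): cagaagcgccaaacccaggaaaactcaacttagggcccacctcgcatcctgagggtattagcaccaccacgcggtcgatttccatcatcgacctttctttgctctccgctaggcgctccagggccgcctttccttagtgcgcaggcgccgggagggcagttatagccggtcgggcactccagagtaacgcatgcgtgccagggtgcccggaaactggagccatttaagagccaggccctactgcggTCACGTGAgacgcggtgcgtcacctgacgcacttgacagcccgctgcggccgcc
Atp6v1a (chr16:44139210-44139509, strand -): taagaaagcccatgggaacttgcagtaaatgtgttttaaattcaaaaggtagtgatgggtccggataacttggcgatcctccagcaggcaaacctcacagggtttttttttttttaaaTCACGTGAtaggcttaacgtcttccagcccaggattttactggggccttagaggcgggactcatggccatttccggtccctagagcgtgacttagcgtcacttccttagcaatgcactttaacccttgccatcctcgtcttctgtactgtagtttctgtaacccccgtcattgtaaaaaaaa

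Counted from the start site, the first base of the match lay at −99 in Ctsd, −46 in Mcoln1, −228 and −195 in Gla, −4 in Atp6v0d1 and −132 in Atp6v1a. Lamp1 had 4 core matches between −61 and −15 and none of the longer one. Among members with a window, the core stood in 12 of the 31 that fell and in 2 of the 10 tested members that did not fall, and the longer letters in 6 of 31 and 1 of 10. A match is a description of letters and not of a bound site, and the absence of one says only that the letters are not in that window.

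Most lysosomal and V-ATPase genes had less RNA in the libraries labelled Tada2b knockout. Of the 53 members, 48 had enough counts to be tested, and with the mean of both guides set against GFPsg 35 fell, 7 rose and 6 were not called (edgeR quasi-likelihood test, Benjamini-Hochberg adjusted p under 0.05 over all genes). Among all genes tested 26.3% fell and 24.7% rose, and these shares also stand beside the counts by role and list below. The median log2 change was −0.29 over the members and −0.02 over all genes. The falls were mostly modest in size: 9 members fell by at least 1.5-fold (8.44% of all genes did) and no member rose by that much (9.97% of all genes did). Scaled by library size alone, 27 members fell and 8 rose, the median of all genes was 0.07, and 63.3% of the calls over all genes were rises, against 48.4% with the main scaling.

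The 53 members summed to 8579, 8735 and 8627 CPM in Tada2bsg1, to 9129.8, 9229.8 and 9388 CPM in Tada2bsg2, and to 13038, 13233 and 12879.7 CPM in GFPsg. All 6 libraries labelled knockout therefore lay below the 3 GFPsg libraries, with guide 1 below guide 2. Gpnmb alone made up much of this gap, and without it the sums were 6651 ± 50.1 CPM in Tada2bsg1, 6817 ± 127 CPM in Tada2bsg2 and 8259.7 ± 128 CPM in GFPsg (SD, n = 3 each). Gene by gene, all 6 libraries labelled knockout lay below all 3 GFPsg libraries for 31 of the 48 tested members (22.2% of all genes) and above them for 6 (21.8% of all genes). Since these are bulk samples, fewer cells of a kind and less RNA per cell cannot be told apart.

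**Figure D1:**
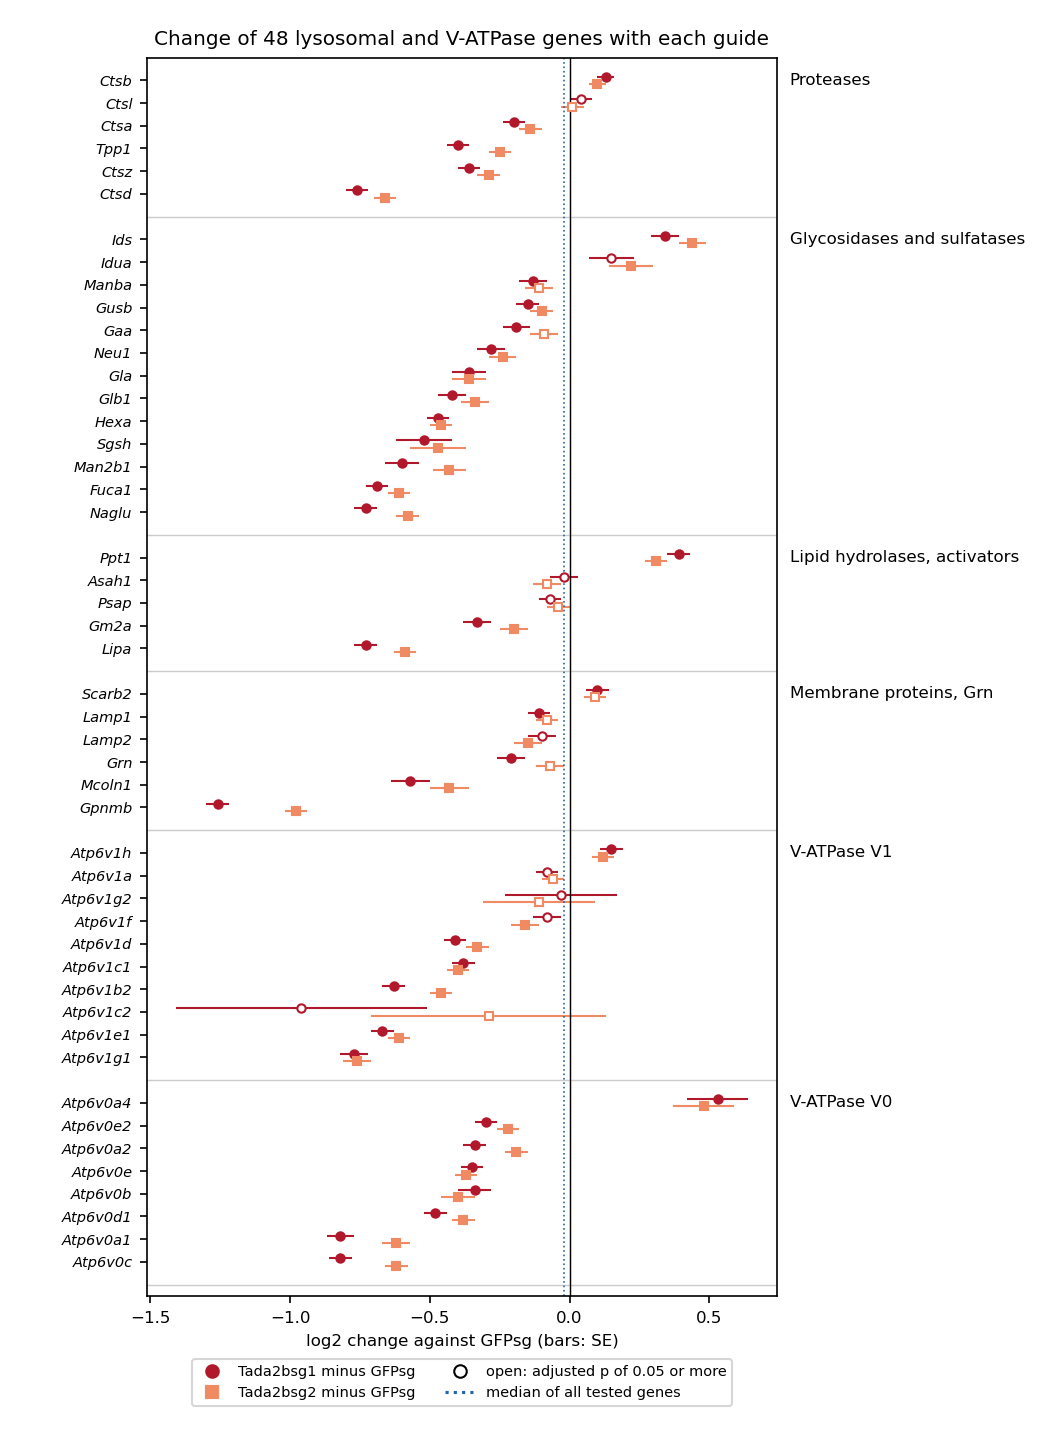
Log2 change of each of the 48 tested members (rows, grouped by role) with Tada2bsg1 (circles) and Tada2bsg2 (squares), each minus GFPsg, with SE bars; open symbols were not called and the dotted line is the median of all tested genes, −0.02. Gpnmb lies farthest to the left at −1.26 and −0.98, and Atp6v0a4, Ids and Ppt1 lie to the right of 0.

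Each guide was also set against GFPsg on its own. With guide 1, 33 members fell and 6 rose (24.5% and 23.8% of all genes), with a median of −0.34. With guide 2, 31 fell and 6 rose (23.0% and 22.1% of all genes), with a median of −0.24. With both guides 29 members fell and 5 rose, 8 were called with 1 guide and 6 with neither, while of the 17931 genes tested 3546 fell and 3519 rose with both, 2637 were called with 1 guide and 8228 with neither. No member, and 1 of all genes tested, was called in opposite directions. The counts of the guides share the GFPsg libraries and are not independent of each other.

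Among the proteases 4 of 6 fell, Ctsb rose and Ctsl was not called, with a median log2 change of −0.25. Ctsd, the aspartic protease cathepsin D (chromosome 7, 142375911 to 142388038, minus strand, mm10), had 268, 263 and 268 CPM in Tada2bsg1, 281, 278 and 296 CPM in Tada2bsg2, and 456, 452 and 446 CPM in GFPsg. Every library labelled knockout was thus far below every control library, at 0.611 of the GFPsg level (log2 change −0.71 ± 0.03, SE; edgeR adjusted p = 3.58e-12). Exons of Ctsd share 808 bases with those of Gm49369 on the same strand, which had 0 counts, so reads there may have been dropped. Ctsz, the carboxypeptidase cathepsin Z, had 151, 149 and 143 CPM in Tada2bsg1, 153, 159.7 and 151 CPM in Tada2bsg2, and 192, 191 and 185 CPM in GFPsg. It fell by 0.33 on the log2 scale, with no overlap between knockout and control libraries (edgeR adjusted p = 2.40e-07). Tpp1, a tripeptidyl peptidase, fell by 0.32 (edgeR adjusted p = 1.00e-06). Ctsa, a serine carboxypeptidase that also protects beta-galactosidase and sialidase, had 121, 119 and 118 CPM in Tada2bsg1, 125, 126 and 124 CPM in Tada2bsg2, and 144, 133 and 135 CPM in GFPsg. That smaller gap, a fall of 0.17, still left the groups apart (edgeR adjusted p = 3.26e-04), but scaled by library size alone it was −0.09 and not called (adjusted p = 0.0601).

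Cathepsins B and L did not follow cathepsins D and Z. Ctsb had 437, 432 and 437 CPM in Tada2bsg1, 432, 421 and 425 CPM in Tada2bsg2, and 401, 405 and 391 CPM in GFPsg. All 6 knockout libraries were above the controls by a small margin, 1.08 times (log2 change 0.11 ± 0.03, SE; edgeR adjusted p = 0.00563). Ctsl had overlapping groups, with means of 153 ± 1.39 CPM in Tada2bsg1, 150.5 ± 7.50 CPM in Tada2bsg2 and 149 ± 6.74 CPM in GFPsg (SD, n = 3 each; log2 change 0.02, edgeR adjusted p = 0.633). Exons of Ctsb share 774 bases with those of Fdft1 on the other strand, and without a stated strand setting reads of such neighbours cannot be told apart. Of the members, 19 shared exon bases with a gene on the other strand and 4 with a gene on the same strand, and not all are named here.

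Among the glycosidases and sulfatases 11 of 13 fell and 2 rose (median log2 change −0.36). Naglu, the alpha-N-acetylglucosaminidase of heparan sulfate breakdown (chromosome 11, 101070012 to 101077672, plus strand), had 48.6, 47.2 and 47.2 CPM in Tada2bsg1, 52.0, 53.3 and 54.0 CPM in Tada2bsg2, and 80.9, 80.4 and 76.3 CPM in GFPsg. The 3 groups did not overlap, and the level fell to 0.635 of that in GFPsg (log2 change −0.66 ± 0.03, SE; edgeR adjusted p = 3.35e-11). Fuca1, which removes fucose from glycoproteins, had 35.5, 36.9 and 36.5 CPM in Tada2bsg1, 38.6, 38.9 and 37.7 CPM in Tada2bsg2, and 58.8, 60.7 and 56.0 CPM in GFPsg. Here too every knockout library was below every control, and the fall was 0.65 on the log2 scale (edgeR adjusted p = 1.20e-10). The alpha-mannosidase Man2b1 fell by 0.52, the heparan N-sulfatase Sgsh by 0.49, the beta-hexosaminidase alpha chain Hexa by 0.47, the beta-galactosidase Glb1 by 0.38, the alpha-galactosidase Gla by 0.36 and the sialidase Neu1 by 0.26. These 6 had edgeR adjusted p between 1.04e-09 (Hexa) and 1.02e-04 (Sgsh), and in all 6 the knockout and control libraries did not overlap. Sgsh had 8.98 ± 0.927 CPM in Tada2bsg1, 9.32 ± 0.796 CPM in Tada2bsg2 and 12.9 ± 1.72 CPM in GFPsg (SD, n = 3 each), and shares 955 exon bases with Card14 on the other strand. Glb1 shares 165 exon bases with Tmppe on the same strand, which had 13.3% of its counts.

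The 2 glycosaminoglycan enzymes that act on iduronate went the other way. Ids, iduronate 2-sulfatase (chromosome X, 70343069 to 70365084, minus strand), had 55.7, 54.7 and 53.8 CPM in Tada2bsg1, 61.1, 60.2 and 54.9 CPM in Tada2bsg2, and 42.9, 43.1 and 43.4 CPM in GFPsg. All knockout libraries were above all controls, at 1.31 times the GFPsg level (log2 change 0.39 ± 0.04, SE; edgeR adjusted p = 2.48e-07). Idua, the alpha-L-iduronidase that acts after Ids, had 6.29, 6.96 and 6.25 CPM in Tada2bsg1, 6.62, 6.63 and 7.20 CPM in Tada2bsg2, and 5.81, 5.73 and 6.07 CPM in GFPsg. The groups were apart by little, and the rise of 0.18 was near the threshold (edgeR adjusted p = 0.0415). It was not called without a low-count filter (adjusted p = 0.0958) or without any 1 of GFPsg replicate 1 (0.102), GFPsg replicate 2 (0.0964), Tada2bsg1 replicate 2 (0.0896) or Tada2bsg2 replicate 3 (0.0665). Idua also shares 124 exon bases with Dgkq and 141 with Slc26a1 on the other strand. Set beside them with knowledge of their values, Gusb, a beta-glucuronidase that also acts on heparan sulfate, fell by 0.13, and Hgsnat, the acetyltransferase before Naglu, fell by 0.30.

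Among the 5 lipid hydrolases and activator proteins 2 fell, 1 rose and 2 were not called (median log2 change −0.05). Lipa, lysosomal acid lipase, which releases cholesterol and fatty acids from lipoprotein lipids (chromosome 19, 34492318 to 34527474, minus strand), had 84.7, 87.4 and 88.9 CPM in Tada2bsg1, 91.5, 101 and 97.3 CPM in Tada2bsg2, and 142, 146 and 146 CPM in GFPsg. The knockout libraries clustered well below the controls, at 0.633 of their level (log2 change −0.66 ± 0.04, SE; edgeR adjusted p = 5.00e-11). Gm2a, the activator that presents GM2 ganglioside to hexosaminidase A, had 36.4, 37.5 and 36.5 CPM in Tada2bsg1, 39.9, 38.2 and 43.1 CPM in Tada2bsg2, and 46.9, 46.1 and 45.8 CPM in GFPsg. It fell by 0.26 (edgeR adjusted p = 3.48e-05). Guide 2 lay between guide 1 and the controls, but the difference between the guides was not called (edgeR adjusted p = 0.156). Ppt1, which removes palmitate from proteins (chromosome 4, 122836242 to 122859175, plus strand), had 83.4, 81.8 and 81.9 CPM in Tada2bsg1, 77.3, 77.9 and 79.2 CPM in Tada2bsg2, and 62.8, 64.6 and 61.4 CPM in GFPsg. It was the only member of this role that rose, by 0.35 ± 0.03 on the log2 scale (SE; edgeR adjusted p = 9.07e-08). Guide 1 was the higher of the guides in every library, but the difference between the guides was not called (edgeR adjusted p = 0.307). Ppt1 shares 129 exon bases with Cap1 on the other strand, and Cap1 had 292% of its counts. Psap, the precursor of the saposins, and Asah1, acid ceramidase, had log2 changes of −0.05 each with overlapping groups (edgeR adjusted p = 0.198 for Psap and 0.357 for Asah1). Without GFPsg replicate 1, Asah1 was called lower at −0.11 (adjusted p = 0.0437).

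In the membrane protein group 5 of 6 fell and Scarb2 rose (median log2 change −0.13), but the sizes were unequal. Gpnmb, a glycoprotein of melanosomes and lysosomes (chromosome 6, 49036546 to 49070929, plus strand), was the most abundant member by counts. It had 1982, 2039 and 1969 CPM in Tada2bsg1, 2423, 2442 and 2432 CPM in Tada2bsg2, and 4899, 4840.0 and 4632 CPM in GFPsg. The 3 groups were separate, and the level fell to 0.460 of that in GFPsg, the largest change among the 48 tested members (log2 change −1.12 ± 0.03, SE; edgeR adjusted p = 4.96e-15). Mcoln1, the calcium-permeable channel TRPML1 (chromosome 8, 3500457 to 3515232, plus strand), had 17.5, 16.3 and 15.8 CPM in Tada2bsg1, 19.8, 18.1 and 17.0 CPM in Tada2bsg2, and 27.3, 22.6 and 23.7 CPM in GFPsg. All knockout libraries were below all controls, although GFPsg replicate 1 stood above the other controls, and the fall was 0.50 on the log2 scale (edgeR adjusted p = 3.86e-06).

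The major structural glycoproteins of the lysosomal membrane moved little. Lamp1 had 414, 430.0 and 404 CPM in Tada2bsg1, 415, 428 and 434 CPM in Tada2bsg2, and 453, 448 and 447 CPM in GFPsg. The groups were apart, but the fall was 0.10 on the log2 scale (edgeR adjusted p = 0.0208). Lamp2 fell by 0.13 with overlapping groups (567 ± 11.9 CPM in Tada2bsg1, 549.8 ± 26.8 CPM in Tada2bsg2 and 609 ± 31.3 CPM in GFPsg, SD, n = 3 each; edgeR adjusted p = 0.0124). Scarb2, the LIMP-2 receptor that carries glucocerebrosidase to lysosomes, had 70.6, 69.8 and 72.8 CPM in Tada2bsg1, 68.0, 71.6 and 72.5 CPM in Tada2bsg2, and 68.3, 64.6 and 65.7 CPM in GFPsg. GFPsg replicate 1 overlapped the knockout libraries, and the rise was 0.10 (edgeR adjusted p = 0.0287). Grn, which encodes the soluble precursor of the granulins, fell by 0.14 (edgeR adjusted p = 0.00795), with 95.7 ± 3.04 CPM in Tada2bsg1, 106 ± 6.64 CPM in Tada2bsg2 and 111 ± 4.02 CPM in GFPsg (SD, n = 3 each), and was called with guide 1 (−0.21) but not with guide 2 (−0.07). Without Gpnmb the group summed to 1166 ± 19.0 CPM in Tada2bsg1, 1170.4 ± 31.5 CPM in Tada2bsg2 and 1261 ± 19.8 CPM in GFPsg (SD, n = 3 each).

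Several of these small changes depended on the scaling or on 1 library. Lamp1 was not called when scaled by library size alone (log2 change −0.01, edgeR adjusted p = 0.795) or without any 1 of GFPsg replicate 2 (0.0754), GFPsg replicate 3 (0.0790), Tada2bsg1 replicate 1 (0.0752), Tada2bsg1 replicate 3 (0.0994), Tada2bsg2 replicate 1 (0.0732) or Tada2bsg2 replicate 2 (0.0656). Lamp2 was not called by library size alone (0.297) or without GFPsg replicate 2 (0.110) or GFPsg replicate 3 (0.104). Scarb2 was not called without a low-count filter (0.0686), without GFPsg replicate 2 (0.0795) or without GFPsg replicate 3 (0.0589). Among the glycosidases, Manba, a beta-mannosidase at −0.12, was not called by library size alone (0.478) or without GFPsg replicate 2 (0.0551), GFPsg replicate 3 (0.0772) or Tada2bsg2 replicate 1 (0.0593). Gaa, which digests glycogen and had a change of −0.14, was not called by library size alone (0.314) or without GFPsg replicate 1 (0.0638). Grn and Gusb were not called by library size alone (0.340 for Grn and 0.314 for Gusb).

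**Figure D2:**
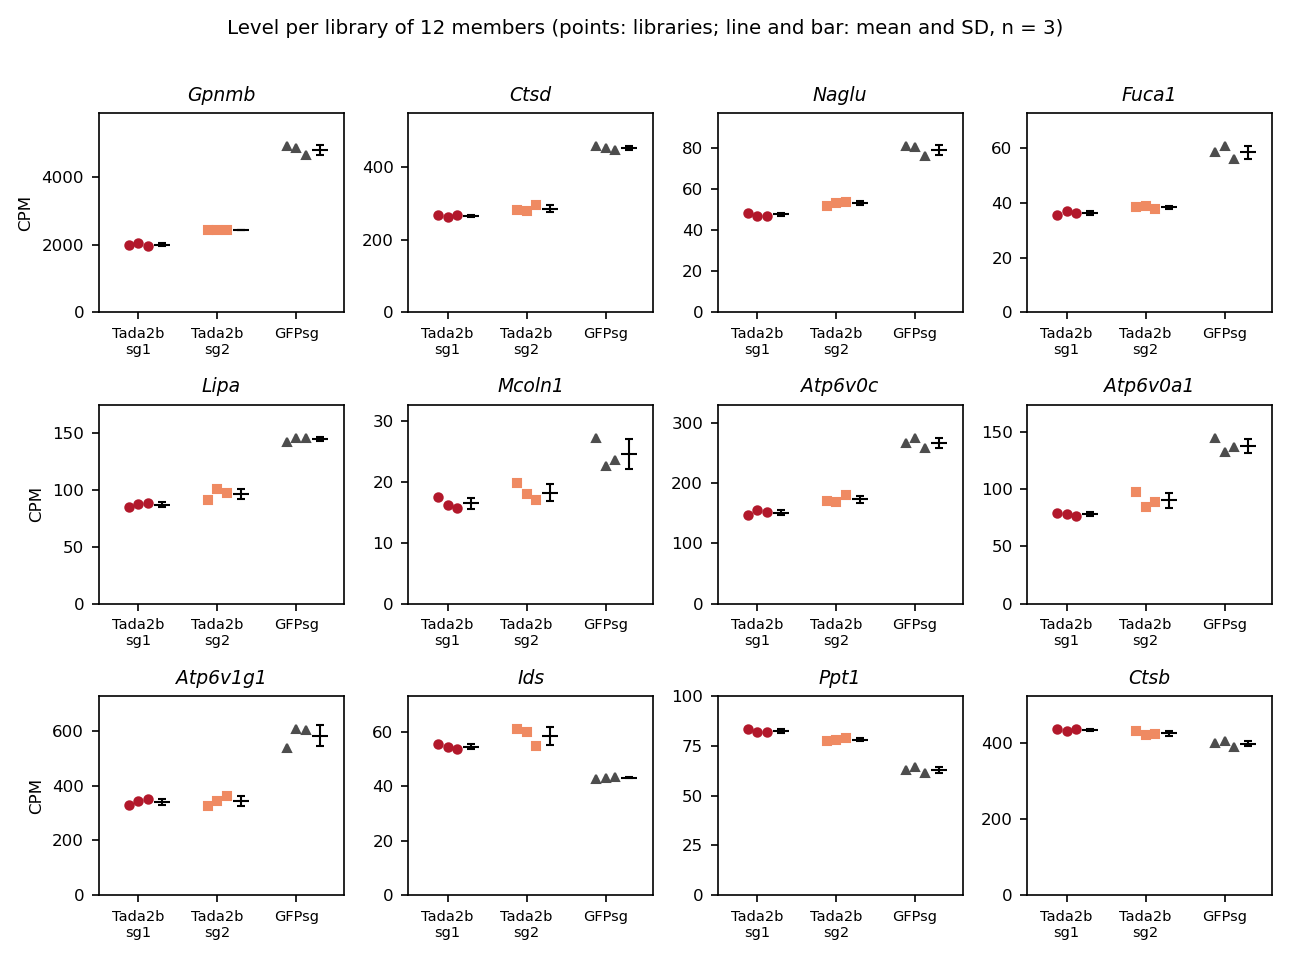
CPM of 12 members in each library (points) with the mean and SD of 3 libraries beside them, for Tada2bsg1, Tada2bsg2 and GFPsg; each axis starts at 0. Gpnmb, Ctsd, Naglu, Fuca1, Lipa, Mcoln1, Atp6v0c, Atp6v0a1 and Atp6v1g1 are lower in all 6 libraries labelled knockout than in the 3 GFPsg libraries, and Ids, Ppt1 and Ctsb are higher in all 6.

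Of the 23 genes with an Atp6v symbol, 18 were tested, and 13 fell, 2 rose and 3 were not called (median log2 change −0.37). The pump genes summed to 2739.7 ± 41.4 CPM in Tada2bsg1, 2831 ± 78.4 CPM in Tada2bsg2 and 3741 ± 112 CPM in GFPsg (SD, n = 3 each). The 5 untested genes had few reads in 9 libraries together: 39 for Atp6v0d2, 41 for Atp6v1b1, 50 for Atp6v1fnb, 1 for Atp6v1g3 and 0 for Atp6v1e2. A count of 0 over all 9 libraries allows up to 0.00449 CPM (3 counts over their sum, counting error only).

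In the V1 part 6 of 10 tested genes fell, Atp6v1h rose and 3 were not called (median log2 change −0.38). Atp6v1g1, the G subunit of the peripheral stalk (chromosome 4, 63544772 to 63550750, plus strand), had 329, 343 and 351 CPM in Tada2bsg1, 324, 343 and 361 CPM in Tada2bsg2, and 538, 606 and 603 CPM in GFPsg. The guides overlapped each other and both lay far below the controls, at 0.587 of their level (log2 change −0.77 ± 0.04, SE; edgeR adjusted p = 1.05e-10). Atp6v1e1, the E subunit that pairs with G in the stalk, had 251, 256 and 259 CPM in Tada2bsg1, 255, 269 and 270.5 CPM in Tada2bsg2, and 381, 420.4 and 415 CPM in GFPsg. It fell by 0.64 in the same manner, with guides overlapping and controls apart (edgeR adjusted p = 1.33e-10). Atp6v1b2, the B subunit, fell by 0.54, Atp6v1c1, the C subunit, by 0.39, and Atp6v1d, a subunit of the rotor shaft, by 0.37, each without overlap between knockout and control libraries (edgeR adjusted p of 1.45e-07 for Atp6v1d, the highest of the 3).

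Atp6v1a, the A subunit that hydrolyses ATP, did not follow its partner B. It had 427, 429 and 429.9 CPM in Tada2bsg1, 423, 439.6 and 438 CPM in Tada2bsg2, and 435, 461 and 458 CPM in GFPsg. The groups overlapped, and the log2 change of −0.07 was not called (edgeR adjusted p = 0.0946). Without GFPsg replicate 1 it was called lower, at −0.09 (adjusted p = 0.0269). Atp6v1h, a regulatory subunit, had 117, 119 and 118 CPM in Tada2bsg1, 112, 115 and 121 CPM in Tada2bsg2, and 104, 107 and 109.5 CPM in GFPsg. Its libraries did not overlap with the controls and it rose by 1.10 times (log2 change 0.13 ± 0.03, SE; edgeR adjusted p = 0.00341). Atp6v1f, a second subunit of the rotor shaft, had 166, 175 and 179 CPM in Tada2bsg1, 163, 162 and 167 CPM in Tada2bsg2, and 169, 193 and 187 CPM in GFPsg. The groups overlapped, and the fall of 0.12 (edgeR adjusted p = 0.0239) was not called when scaled by library size alone (0.471) or without GFPsg replicate 2 (0.258), GFPsg replicate 3 (0.151), Tada2bsg1 replicate 1 (0.0937) or Tada2bsg2 replicate 2 (0.0748). The minor forms Atp6v1g2 and Atp6v1c2 were low, at 1.37 ± 0.255, 1.29 ± 0.131 and 1.39 ± 0.346 CPM for Atp6v1g2 and 0.109 ± 0.0507, 0.173 ± 0.0168 and 0.212 ± 0.0589 CPM for Atp6v1c2 in Tada2bsg1, Tada2bsg2 and GFPsg (SD, n = 3 each), and neither was called (edgeR adjusted p = 0.771 for Atp6v1g2 and 0.179 for Atp6v1c2). Atp6v1g2 shares 144 exon bases with Nfkbil1 and Atp6v1c2 shares 50 with the far more abundant Pdia6, both on the other strand.

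In the V0 part 7 of 8 tested genes fell and Atp6v0a4 rose (median log2 change −0.36). Atp6v0c, the c subunit of the proton-carrying ring (chromosome 17, 24163866 to 24169702, minus strand), had 147, 155 and 152 CPM in Tada2bsg1, 171, 169 and 179.7 CPM in Tada2bsg2, and 267, 275 and 258 CPM in GFPsg. The 3 groups were separate, and the level fell to 0.607 of that in GFPsg (log2 change −0.72 ± 0.03, SE; edgeR adjusted p = 9.40e-12). The count table also held 2 Atp6v0c pseudogenes, so reads may have been split or dropped between copies. Atp6v0a1, the a1 form of the subunit that borders the ring, had 79.4, 78.6 and 76.5 CPM in Tada2bsg1, 97.3, 84.7 and 88.9 CPM in Tada2bsg2, and 145, 133 and 137 CPM in GFPsg. It fell by 0.72, again with 3 separate groups (edgeR adjusted p = 1.68e-10). Atp6v0d1, which links the ring to the shaft, fell by 0.43, Atp6v0b, the c'' ring subunit, by 0.37 and Atp6v0e by 0.36, and in all of these the knockout libraries lay below the controls.

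The smallest falls in V0 were those of the e2 and a2 forms. Atp6v0e2 had 119.5, 122 and 119 CPM in Tada2bsg1, 123, 127 and 130.3 CPM in Tada2bsg2, and 150.5, 153 and 141 CPM in GFPsg. It fell by 0.26 with no overlap (edgeR adjusted p = 6.77e-06). Atp6v0a2 had 94.9, 102 and 98.3 CPM in Tada2bsg1, 113, 107 and 108 CPM in Tada2bsg2, and 129, 125 and 122 CPM in GFPsg. It fell by 0.27 (edgeR adjusted p = 5.76e-06), with guide 2 between guide 1 and the controls. Atp6v0a4, a form known from kidney and inner ear, had 4.54 ± 0.530 CPM in Tada2bsg1, 4.37 ± 0.445 CPM in Tada2bsg2 and 3.13 ± 0.135 CPM in GFPsg (SD, n = 3 each) and rose by 0.51 ± 0.10 (SE; edgeR adjusted p = 3.90e-04). Its exons share 259 bases with D630045J12Rik on the same strand, which had 650% of its counts, so its own level is uncertain.

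Levels of different genes were set against each other per kilobase of merged exons. On that scale Atp6v1g1 was the most abundant V-ATPase gene, with 300.5 ± 9.47, 302 ± 16.3 and 513 ± 34.0 CPM per kb in Tada2bsg1, Tada2bsg2 and GFPsg, followed by Atp6v1f with 163 ± 6.04, 154 ± 2.58 and 172 ± 12.1 CPM per kb (SD, n = 3 each). For the a subunit, the share of the summed level per length held by Atp6v0a1 was 33.5% ± 0.629 in Tada2bsg1, 34.1% ± 1.09 in Tada2bsg2 and 40.6% ± 0.546 in GFPsg, while that of Atp6v0a2 was 41.1% ± 1.12, 40.3% ± 0.691 and 35.8% ± 0.709 in the same order (SD, n = 3 each). On this scale a2 was the leading form in all 6 libraries labelled knockout, and a1 in all 3 controls. Tcirg1, the a3 form known from osteoclasts, held 22.9% ± 0.353, 23.4% ± 0.724 and 22.4% ± 0.376 (SD, n = 3 each), and its share overlapped between the groups. These shares are descriptions, with no test. The order of genes per length rests on merged exon lengths, which may differ from those of the transcripts expressed. For the B, C, E, G and d subunits 1 gene held nearly the whole level, each minor form having a mean share of at most 0.201% in any group (Atp6v1c2 in Tada2bsg2), and for e Atp6v0e2 held between 61.7 and 66.1%.

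**Figure D3:**
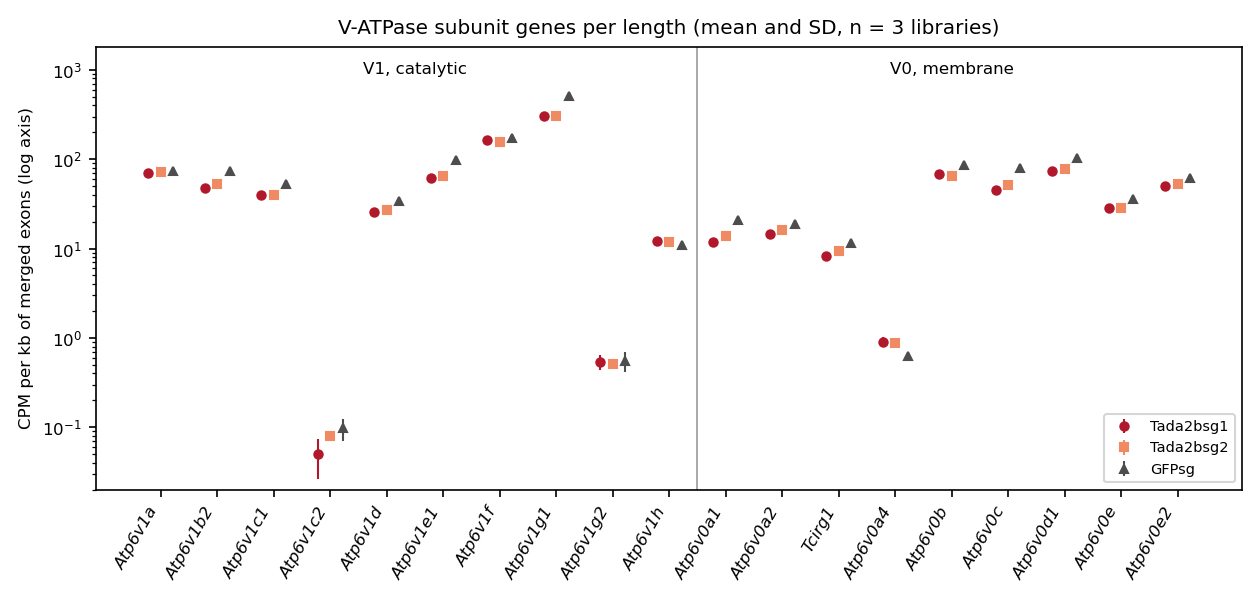
Level of 18 tested V-ATPase genes and Tcirg1 per kb of merged exons (log axis, mean and SD of 3 libraries) in Tada2bsg1, Tada2bsg2 and GFPsg. Atp6v1g1 is highest, at 300.5, 302 and 513 CPM per kb, Atp6v1a, Atp6v1f and Atp6v1h differ little between groups, and Atp6v1c2 is lowest.

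The difference between the guides was tested directly, with the GFPsg libraries entering only the scaling and the estimate of spread. Relative to Tada2bsg1, 6 members were higher in Tada2bsg2 and 0 lower (2.66% and 1.02% of all genes), and the median log2 difference over the members was 0.06. Without regard to the test, all 3 Tada2bsg2 libraries lay above all 3 Tada2bsg1 libraries for 19 of the 48 members (12.7% of all genes) and below them for 1, Ppt1 (10.6% of all genes). Gpnmb averaged 2432 ± 9.79 CPM in Tada2bsg2 and 1997 ± 37.0 CPM in Tada2bsg1 (SD, n = 3 each), a log2 difference of 0.28 ± 0.04 (SE; edgeR adjusted p = 1.23e-04). Atp6v0c averaged 173 ± 5.87 CPM in Tada2bsg2 and 151 ± 3.80 CPM in Tada2bsg1, a difference of 0.19 ± 0.04 (SE; edgeR adjusted p = 0.0108). Atp6v1b2 had 279, 276 and 289 CPM in Tada2bsg2, 250.3, 249 and 253 CPM in Tada2bsg1, and 388, 386 and 389 CPM in GFPsg, with a difference between the guides of 0.16 ± 0.04 (SE; edgeR adjusted p = 0.0137). In each of these 3 genes Tada2bsg2 lay between Tada2bsg1 and GFPsg. Atp6v0a1 (0.21), Naglu (0.16) and Atp6v0a2 (0.15) were nearer the threshold, with edgeR adjusted p of 0.0271 for Atp6v0a1, 0.0410 for Naglu and 0.0493 for Atp6v0a2. All 7 melanocytic markers were also higher in Tada2bsg2 than in Tada2bsg1, with a median difference of 0.50, and their part in the difference was not tested.

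These calls between the guides were sensitive to single libraries, except that of Gpnmb, which was called in all 16 alternatives (adjusted p of at most 0.00206). The number of members called higher in Tada2bsg2 was 1 without Tada2bsg1 replicate 1, 2 without Tada2bsg1 replicate 2 and 1 without Tada2bsg1 replicate 3, in each of which guide 1 kept fewer libraries. Atp6v0c was not called without Tada2bsg1 replicate 1 (0.0692) or Tada2bsg1 replicate 3 (0.0581). Atp6v1b2 was not called without Tada2bsg1 replicate 1 (0.0660), Tada2bsg1 replicate 2 (0.0824) or Tada2bsg1 replicate 3 (0.0623). Atp6v0a1 lost its call by library size alone (0.0576) or without Tada2bsg1 replicate 1 (0.0630), Tada2bsg1 replicate 2 (0.0979), Tada2bsg1 replicate 3 (0.150) or Tada2bsg2 replicate 1 (0.0870). Naglu lost it in 8 of 16 alternatives, among them each in which a Tada2bsg1 library (0.0801 to 0.196), Tada2bsg2 replicate 2 (0.151), Tada2bsg2 replicate 3 (0.0833) or GFPsg replicate 2 (0.0550) was left out. Atp6v0a2 lost it in 10, among them each in which a Tada2bsg1 library (0.0674 to 0.204), a Tada2bsg2 library (0.0578 to 0.127), GFPsg replicate 2 (0.0665) or GFPsg replicate 3 (0.0638) was left out.

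Lysosomal genes outside the member list included both falls and rises. Of 46 such genes 44 were tested, and 24 fell, 12 rose and 8 were not called (median log2 change −0.18). Of all genes tested, 26.3% fell and 24.7% rose. Dpp7, a dipeptidyl peptidase, fell by 1.14, with 33.3 ± 0.611 CPM in Tada2bsg1, 37.7 ± 1.15 CPM in Tada2bsg2 and 78.1 ± 1.65 CPM in GFPsg (SD, n = 3 each; edgeR adjusted p = 2.27e-14). Ctns, the cystine exporter, fell by 0.84 (edgeR adjusted p = 9.59e-12). Galns, a sulfatase of keratan and chondroitin sulfate, rose by 1.07, with 16.1 ± 0.566 CPM in Tada2bsg1, 15.6 ± 0.580 CPM in Tada2bsg2 and 7.55 ± 0.271 CPM in GFPsg (SD, n = 3 each; edgeR adjusted p = 4.74e-11). The aminopeptidase cathepsin Ctsh rose by 0.79 (edgeR adjusted p = 3.00e-09).

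Delivery of the enzymes depends on mannose 6-phosphate tags and sorting receptors. Of 11 genes of that route 7 fell, 0 rose and 4 were not called (median log2 change −0.12). Of all genes tested, 26.3% fell and 24.7% rose. Sort1, the sortilin receptor, fell by 0.95, with 89.1 ± 0.986 CPM in Tada2bsg1, 108 ± 6.23 CPM in Tada2bsg2 and 189 ± 11.9 CPM in GFPsg (SD, n = 3 each; edgeR adjusted p = 3.34e-12). The coat adaptor Gga2 fell by 0.69, Gnptab, the transferase that starts the tag, by 0.41, and Nagpa, which uncovers it, by 0.28 (edgeR adjusted p of 6.29e-04 for Nagpa, the highest of the 3). Of 19 genes of nutrient sensing at the lysosome 12 fell, 2 rose and 5 were not called (median log2 change −0.21). The shares of all genes are those given above. Rragd, a Rag GTPase, fell by 1.87, with 23.2, 24.6 and 23.0 CPM in Tada2bsg1, 31.8, 31.9 and 30.8 CPM in Tada2bsg2, and 99.8, 99.4 and 101 CPM in GFPsg (edgeR adjusted p = 5.16e-17). Its relative Rragc fell by 0.31, the folliculin partner Fnip2 by 0.65 and the Ragulator subunit Lamtor2 by 0.45. The 2 genes that rose were the other Rag genes, Rraga by 0.21 (edgeR adjusted p = 6.55e-04) and Rragb by 0.28 (edgeR adjusted p = 0.0215). In both, knockout and control libraries overlapped, and with guide 2 alone Rragb was not called (edgeR adjusted p = 0.186).

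Accessory genes of the V-ATPase split evenly, with 5 of 10 tested genes lower and 5 higher, and Atp6ap1l was not tested. Of all genes tested, 26.3% fell and 24.7% rose. Dmxl2, a component of the complex that assembles V1 with V0, had 133, 132 and 125 CPM in Tada2bsg1, 192, 192 and 178 CPM in Tada2bsg2, and 483, 467 and 463 CPM in GFPsg. The 3 groups were separate, and it fell by 1.59 on the log2 scale (edgeR adjusted p = 3.69e-16). Its partner Rogdi rose by 0.82 and its partner Wdr7 fell by 0.30. Dmxl1 rose by 0.11 (edgeR adjusted p = 0.0212). Its knockout and control libraries overlapped, and with guide 1 alone it was not called (edgeR adjusted p = 0.372). Wdr7 shares 117 exon bases with Txnl1 on the other strand, which had 794% of its counts, and Ncoa7 shares 78 with Hint3 on the same strand, which had 21.7% of its counts. Tcirg1 fell by 0.41 and the accessory subunit Atp6ap2 by 0.18, whereas Atp6ap1 rose by 0.16. The TLDc-domain genes Ncoa7 and Tldc1 rose by 0.30 and 0.40. Rnasek fell by 0.94 (edgeR adjusted p = 0.0242), but it had 128 reads in all and shares 599 exon bases with Gm21988 on the same strand.

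Of the MiT factors, Mitf had 242, 250.1 and 243 CPM in Tada2bsg1, 328, 333 and 335 CPM in Tada2bsg2, and 783, 779 and 786 CPM in GFPsg. It fell by 1.46, with 3 separate groups (edgeR adjusted p = 1.21e-16). Tfeb, at 4.80 ± 0.0442 CPM in Tada2bsg1, 5.29 ± 0.758 CPM in Tada2bsg2 and 6.97 ± 0.351 CPM in GFPsg (SD, n = 3 each), fell by 0.47 (edgeR adjusted p = 1.51e-04). Tfe3 had overlapping groups, at 29.8 ± 0.905 CPM in Tada2bsg1, 31.8 ± 1.43 CPM in Tada2bsg2 and 29.8 ± 1.64 CPM in GFPsg (SD, n = 3 each; log2 change 0.04, edgeR adjusted p = 0.450). Tfec had less than 1 CPM in every group and was not called (edgeR adjusted p = 0.364). The part of these factors in the change of the lysosomal genes was not tested.

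**Figure D4:**
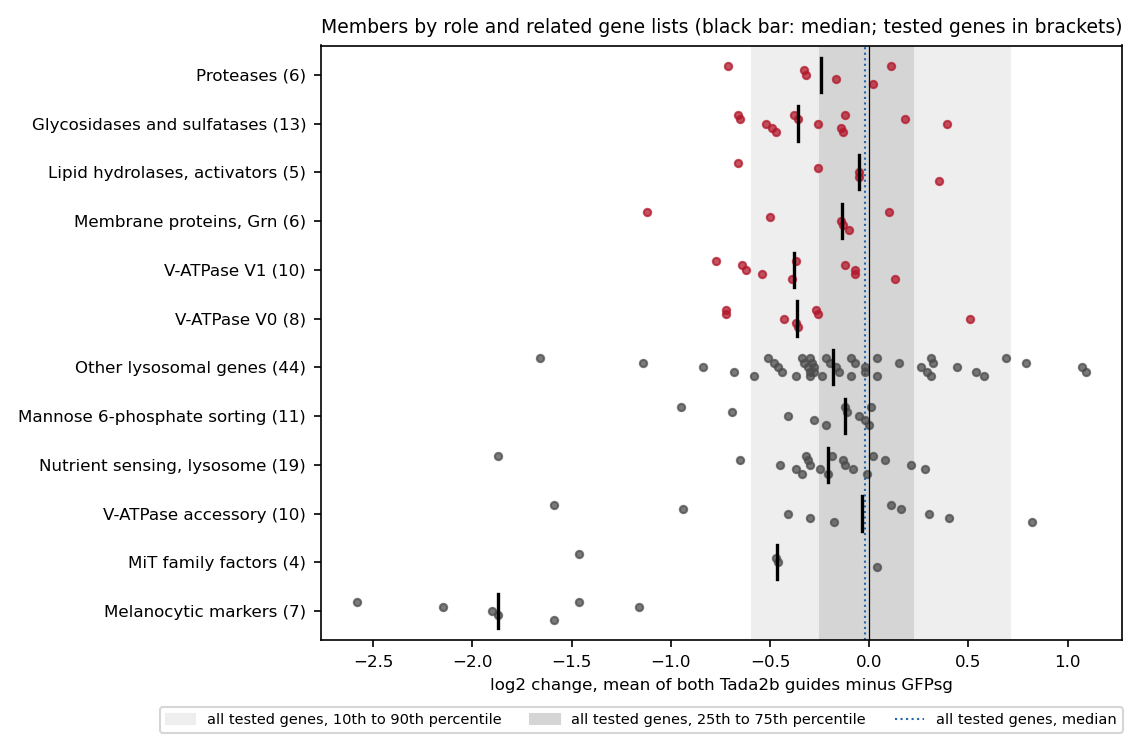
Log2 change (mean of both Tada2b guides minus GFPsg) of each tested gene in the 6 roles of the members (red) and in 6 related lists (grey), with medians as black bars; shaded bands give percentiles of all tested genes, from the 10th (−0.59) to the 90th (0.71) for the wide band and from the 25th (−0.25) to the 75th (0.22) for the narrow one. The role medians lie between −0.38 (V1) and −0.05 (lipid), all below the median of all genes, −0.02, and the melanocytic markers lie farthest to the left, with a median of −1.87.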

How the data were processed

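RNA-seq counts were analysed from 9 libraries in 3 groups of 3. Per the submitters' processing notes, bcl2fastq, HISAT2 and HTSeq were used with the mm10 build; versions, annotation release and strand setting are not given in the sources used here. The deposited table holds raw counts per Ensembl gene, not normalized by the authors, as its whole-number values show, and per the labels libraries came from a stranded mRNA kit. Of 54752 identifiers 54723 matched GENCODE M21 (GRCm38), which gave symbols, exons and coordinates.

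Here edgeR 4.0.16 (R 4.3.3) was applied to 1 fit of 3 groups, with TMM scaling, filterByExpr (count minimum 10; 17931 genes, 99.97% of counts), the quasi-likelihood F test and Benjamini-Hochberg adjustment over all tested genes, called at an adjusted p under 0.05. The contrasts were the mean of both guides minus GFPsg, each guide minus GFPsg, and guide 2 minus guide 1. SE is the size of the log2 change over the square root of F. CPM use TMM-scaled library sizes. No replicate pair agreed within sampling noise (chi-square per degree of freedom 7.75 to 25.2). The pipeline was tested on simulated counts. Alternatives were DESeq2 1.42.0, other scalings and filters, a replicate block and leaving out each library.

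Per-library values are given for the called members with the 2 highest and 2 lowest changes in each role (mean of at least 5 CPM) and the 3 with the lowest p between the guides; of other lists up to 4 genes with the lowest p are given. Members, lists and rules were chosen with earlier results of these data known. The heparan sulfate comparison, Atp6v1a's per-library values, the values of Rraga and Rragb and values of members outside these rules were chosen after they were seen.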

Additional observations from a re-analysis of the deposited data

Results flagged for a closer look

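For 6 members the test of guide 2 against guide 1 was itself past the threshold, so that the change against GFPsg differed between the guides. The log2 difference, Tada2bsg2 minus Tada2bsg1, was 0.28 for Gpnmb, 0.21 for Atp6v0a1, 0.19 for Atp6v0c, 0.16 for Atp6v1b2, 0.16 for Naglu and 0.15 for Atp6v0a2. In all 6 the level in Tada2bsg2 lay above that in Tada2bsg1 in every library and below that in GFPsg.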

How the results depend on the processing

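In the knockout contrast 27 of the members that fell and 5 of those that rose were called in all 15 alternatives that gave a value; a fit of only the groups compared gives none there, since it uses all groups. The other 10 lost their call in some, and 3 members not called (Asah1, Atp6v1a and Ctsl) were called in some, Ctsl as higher at 0.11 with library size alone (adjusted p = 0.0124). No called change reversed; signs of uncalled members turned in 6 cases there and in 14 between the guides. The median log2 change of the members, −0.29, was −0.21 with library size alone, −0.27 with a mean of at least 1 CPM, −0.27 with no low-count filter and between −0.29 and −0.25 with 1 library left out. With guide 1 (−0.34) it was −0.26 with library size alone and between −0.34 and −0.31 with 1 library left out. With guide 2 (−0.24) it was −0.16 with library size alone, −0.23 with DESeq2, −0.23 with RLE size factors, −0.22 with only the groups compared and between −0.24 and −0.20 with 1 library left out. Between the guides it was 0.06, and between 0.04 and 0.08 with 1 library left out.

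Between the guides 660 genes were called, 1070 with no low-count filter and between 335 and 808 with 1 library left out (335 without Tada2bsg1 replicate 3, 345 without Tada2bsg1 replicate 2, 399 without Tada2bsg2 replicate 2), and 6 members, between 1 and 8 with 1 library left out. No member was called lower by edgeR or DESeq2. With the replicate number as a block, 1705 genes were called between the guides and 12 members were higher in Tada2bsg2, the 6 added members being Lipa, Tpp1, Grn, Man2b1, Ctsd and Atp6v0d1; the cause was not tested. Libraries with the same number correlated at −0.01 to 0.10 and others at −0.09 to 0.04, with 14 of 18 comparisons highest for the own number. This is a hint from the data that libraries of a number may share something. The labels name no shared batch and the correlations were at most 0.10, so the fit without the block was kept. In the knockout contrast the block called 36 members lower and 7 higher, adding Atp6v1a (−0.07, adjusted p = 0.0230). Several minor V-ATPase forms had too few reads to be tested.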
